A study of Ambystoma mexicanum with 6 samples.

Results

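Among the genes of the axolotl retina, 287 lie in runs of genes that carry consecutive identifier numbers and that stood at least 4-fold lower in the regenerating than in the uninjured retina. The axolotl (Ambystoma mexicanum) is a salamander able to rebuild a retina that has been taken out, an operation called retinectomy. All animals were adults labelled leucistic, a pale-skinned genotype. The regenerating group holds 3 pools of 4 retinas each, taken 27 days after retinectomy, and the uninjured group holds 3 pools of 4 retinas removed from 12 animals. Each regenerating pool came from the same animals as the uninjured pool of the same number, and a pool of 4 retinas hides the differences between animals.

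The members were chosen on measured levels. For each gene, U is the mean of the 3 uninjured pools and R the mean of the 3 regenerating pools, in CPM (estimated reads of the gene per 1000000 reads of the library). A gene is called falling here when U is at least 1 CPM and at least 4 times R. The identifiers that consist of AMEX60DD and digits number 56812 of 99088 in all, and they run from 1 to 56812 with 0 numbers absent. Of these, 3270 were falling. At least 3 falling genes with adjacent numbers make a run, and 100 runs with 328 genes were found. Of these genes, 41 with U of at least 10 CPM and R at or below U/128 were left out, and the other 287 are the members. The difference between the groups is therefore a property of the choice, and the levels below describe it without testing it.

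Neighbouring genes in animal genomes often share expression. Copies that arose side by side by duplication can keep the same regulatory elements, unrelated neighbours can lie in a common regulatory domain, and a single gene may be annotated in pieces that carry separate identifiers. In the retina, well known gene groups of the photoreceptors, interneurons and glia are each active in a particular cell type, and their RNA is lost with the tissue and returns as cells differentiate. The files give identifiers without gene symbols, and the RefSeq table for UKY_AmexF1_1 held 0 of the 99088 identifiers. The members thus have no names here, their function is not stated, and the labelled tissue could not be checked against markers. The sources used here do not state that adjacent numbers are adjacent places in the genome. In whole retinas, fewer cells of a type and less RNA per cell cannot be told apart.

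The libraries held 29.4, 32.0 and 34.2 M estimated reads in the regenerating group and 35.7, 37.4 and 31.0 M in the uninjured group, so that 3 reads correspond to 0.0801 to 0.102 CPM. On log2(CPM + 0.5) over 31025 genes with at least 1 CPM in a library, the regenerating libraries correlated with each other at 0.96 to 0.98. Uninjured pool 1 stood apart, with Pearson correlations of 0.92 with each of uninjured pools 2 and 3, which correlated at 0.99. Without uninjured pool 1 the rule gave 102 runs and 294 members.

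The members spanned a wide range of abundance. They took 0.0872%, 0.0988% and 0.101% of the reads of the regenerating libraries, against 0.999%, 1.31% and 1.31% of the reads of the uninjured libraries. The median member measured 0.578, 0.625 and 0.643 CPM in the regenerating pools and 9.47, 12.6 and 10.9 CPM in the uninjured pools. Uninjured pool 1 gave the lowest of the uninjured values in both measures, and all 3 remained far above the regenerating ones. By U, 30 members lay between 1 and 2 CPM, 110 between 2 and 10, 117 between 10 and 100 and 30 at 100 CPM or more, up to 953 CPM. In the regenerating pools 174 of the 287 members had R under 1 CPM, 28 had at least 10 CPM and the highest reached 53.2 CPM.

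**Figure D1:**
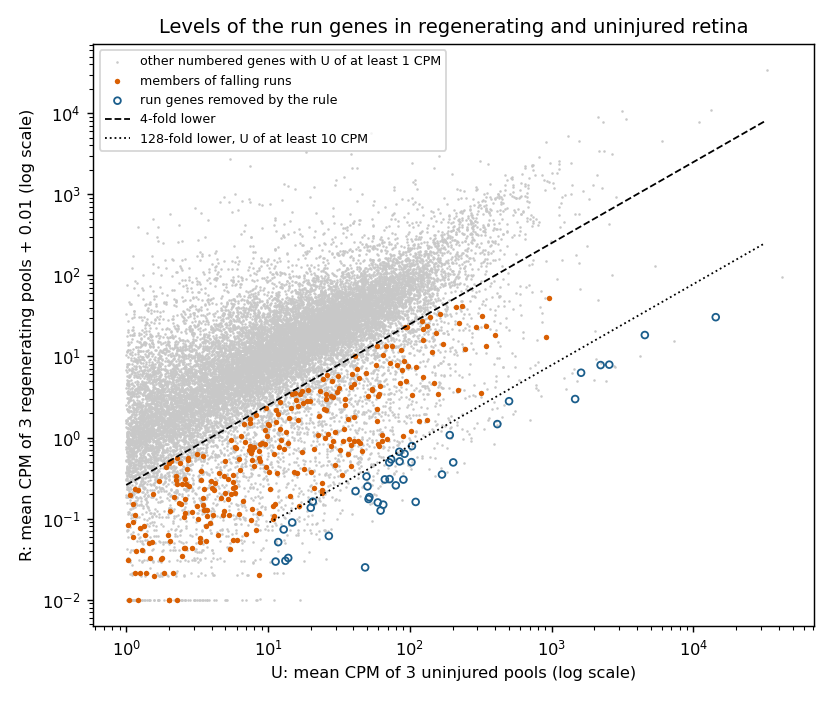
Mean CPM of the 3 regenerating pools (vertical axis, log scale, 0.01 added) against mean CPM of the 3 uninjured pools (horizontal axis, log scale) for the 287 members, the 41 run genes left out and the other numbered genes with U of at least 1 CPM. Members lie under the 4-fold line by the choice, over levels from 1.03 to 953 CPM, and those with U of at least 10 CPM lie above the 128-fold line by the choice as well.

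The size of the difference varied widely among members. Of the 282 members with reads in the regenerating pools, 73 were 4-fold to 8-fold lower there, 122 were 8-fold to 32-fold lower, 78 were 32-fold to 128-fold lower and 9 were at least 128-fold lower, all 9 with U under 10 CPM and 1 to 6 reads over the regenerating pools. Another 5 members had no read in any regenerating pool, and set at 3 reads per library they were at least 11.2-fold to at least 24.2-fold lower. With these at their bound, the median member was 16.6-fold lower, beside 12.5-fold for the 2942 falling genes outside runs. Those outside, also in the TPM medians that follow, still include 199 genes that meet the criterion by which run genes were left out. In all, 46 members had R under the mean floor of 0.0945 CPM, the 5 without reads included. Those with reads are given unbounded, so their fold differences rest on few reads. Per gene length, in TPM (transcripts per 1000000, the authors' length-scaled unit), the median member had 0.530 TPM in the regenerating and 11.6 TPM in the uninjured pools. The falling genes outside runs had medians of 0.570 and 9.23 TPM, and all 20476 numbered genes with U of at least 1 CPM had 6.43 and 8.22 TPM, regenerating first in each.

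In 285 of the 287 members the 3 regenerating pools lay below all 3 uninjured pools, where 42.5% of the 20476 numbered genes with U of at least 1 CPM did so, and the choice of members used the same pools. In the other 2 members the groups overlapped. One, the last gene of the run called I here, had 0.340, 0.5001 and 0 CPM in the regenerating pools against 0.0280, 5.05 and 0.0323 CPM in the uninjured pools, so its place among the falling genes came from uninjured pool 2 alone. The other had 0.715, 0.688 and 0.584 CPM in the regenerating pools against 0.672, 13.7 and 11.4 CPM in the uninjured pools, where uninjured pool 1 lay among the regenerating values. Over all members, 3 took more than 2/3 of their summed uninjured CPM from 1 pool.

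A test across all genes was fitted for comparison with the rule. Of 37844 genes tested with edgeR's quasi-likelihood test, 21.1% were called lower in the regenerating retina at a Benjamini-Hochberg adjusted p under 0.05. Of the members, 285 were tested and 280 were called lower, 0 were called higher and 5 were not called. The median log2 fold change was -3.93 over the members tested, with a median SE of 0.45, and -0.01 over all genes tested. Since the members were chosen on this contrast, these counts are no support for it. In 4 of the 5 members not called, regenerating pool 1 was the highest of the regenerating pools, and the exception was the last gene of run I. The second gene of run D was 1 of the 4, with 0.536, 0.0625 and 0.0444 CPM in the regenerating and 1.33, 1.41 and 0.904 CPM in the uninjured pools (log2 fold change -2.31, SE 0.80, edgeR adjusted p = 0.0588).

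Falling genes stood beside each other more often than at wider fixed distances in the numbering. Of the falling genes, 18.0% were followed by a falling gene at the next number, 11.7% had one 2 numbers on, 9.97% had one 3 numbers on and 7.40% had one 5 numbers on. The share was 6.79% at 10 numbers, 5.90% at 100 and 6.36% at 1000, where 5.76% of all numbered genes were falling. Expressed genes, those with U of at least 1 CPM, made up 40.5% of the next genes and 36.1% of those 100 numbers on. Of these expressed genes, 44.4% were falling at the next number and 16.4% were falling 100 numbers on, beside 16.0% of all 20476 expressed numbered genes.

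The same count was made with runs read at wider steps, which keeps the number of falling genes and changes which genes count as neighbours. At a step of 1 there were 100 runs, 77 of 3 genes, 18 of 4 and 5 of 5. At a step of 2 there were 47, at steps of 3 and 4 there were 31 each, and at steps of 5 to 10 there were 14 to 17. At 10 steps between 100 and 1000 there were 7 to 13 runs, with a median of 10. Most falling genes stood outside runs all the same: 2222 had no falling neighbour, 360 stretches held exactly 2, and the runs took 10.03% of the falling genes. For the opposite direction, 2846 genes had R of at least 1 CPM and at least 4 times U, and they made 84 runs with 290 genes.

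**Figure D2:**
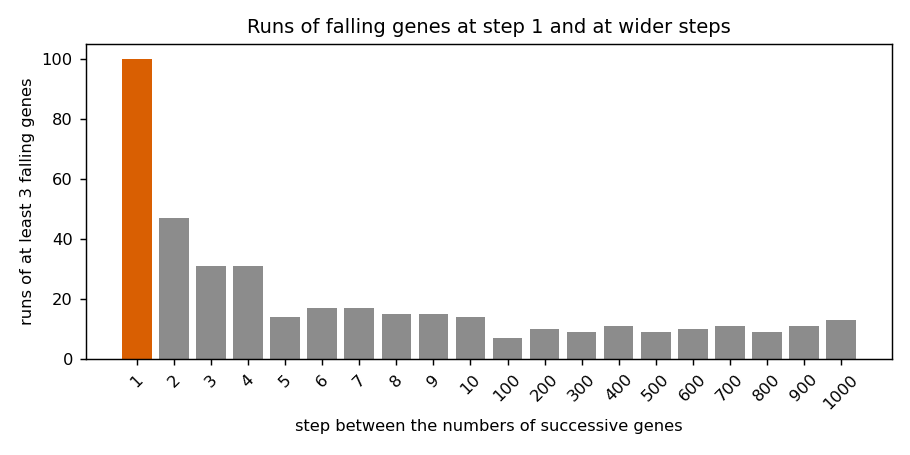
Number of runs of at least 3 falling genes (bar height) when successive genes are taken at a step of 1 (orange) and at wider steps between their numbers (grey). The count is 100 at a step of 1, 47 at a step of 2 and 7 to 13 at steps of 100 to 1000.

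The fall of the runs was also read in pools that had no part in finding them. Runs were found anew from 2 same-numbered pairs of pools, and the remaining pair, from other animals, was then examined. With pair 1 held out, 100 runs with 283 genes were found, and 253 of the 283 (89.4%) were at least 4-fold lower in regenerating pool 1 than in uninjured pool 1, where 15.6% of 19411 other numbered genes with at least 1 CPM in the pools used were so. With pair 2 held out, 263 of 282 genes (93.3%) fell, against 15.2% of 20300 others. With pair 3 held out, 262 of 286 genes (91.6%) fell, against 14.9% of 20238 others. The other genes, here and below, include the falling genes outside runs. Lower values of any size were found in 278, 281 and 286 of the run genes. A held-out pair is 1 pool against 1 and allows no test.

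Whole runs were also read, with the genes left out put back. Every gene of the run was at least 4-fold lower, at 1 CPM or more in the held-out uninjured pool, in 64 of 100 runs for pair 1, 79 of 98 runs for pair 2 and 77 of 100 runs for pair 3. With a minimum of 1 CPM in the held-out uninjured pool, the shares of the kept run genes were 91.8%, 93.8% and 91.8%, against 16.0%, 16.5% and 16.3% of the other numbered genes with that level. The falling genes outside runs, found from the same pools, reached 81.8%, 91.2% and 88.6% with that minimum, and 78.7%, 88.0% and 85.4% without it. With the minimum, the median difference in the held-out pair was 15.1-fold, 16.1-fold and 14.8-fold for run genes and 10.6-fold, 12.7-fold and 12.0-fold for falling genes outside runs. For these medians, regenerating values under the mean floor of 0.0945 CPM were raised to it, also in genes with reads. Whether the larger differences of the run genes account for their higher shares was not tested. Without a minimum, pair 1, which holds the uninjured pool that stood apart, gave the lowest shares of run genes and of falling genes outside runs.

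**Figure D3:**
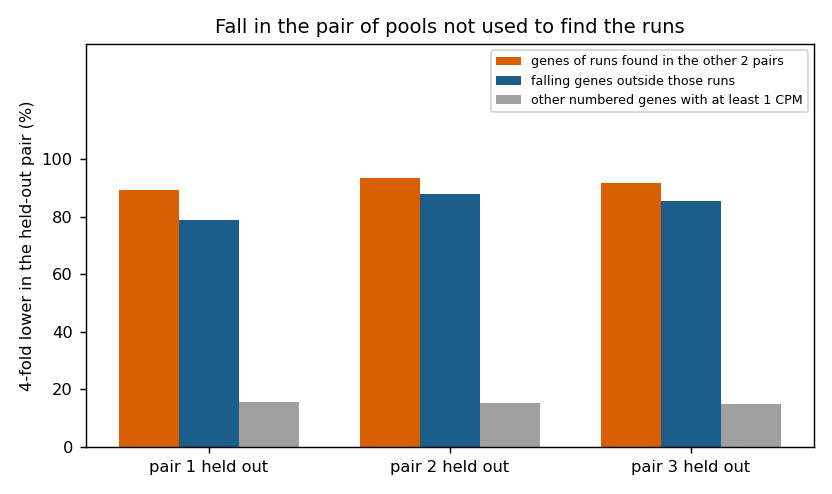
Percent of genes at least 4-fold lower in the regenerating than in the uninjured pool of a pair not used to find them (vertical axis), for genes of runs found in the other pairs (orange), falling genes outside those runs (blue) and other numbered genes with at least 1 CPM in the pools used (grey). The grey set includes the blue genes. Genes that met the 128-fold criterion in the pools used are in neither the orange nor the blue set. Run genes reach 89.4% to 93.3%, falling genes outside runs 78.7% to 88.0%, and the grey bars stay between 14.9% and 15.6%.

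The runs are called here by letters, in the order of their number of falling genes and then of the summed U of their members: A to H for the first 8, and I to L for the 4 others with the highest summed U. Single genes are given by their place in the run, and only the members with the highest U by identifier. Run A kept all 5 of its genes. The first gene, of 7598 bases, measured 15.1, 10.3 and 11.5 CPM in the regenerating pools against 192, 215 and 322 CPM in the uninjured pools. The second gene, of 833 bases, measured 0.715, 0.906 and 0.497 CPM in the regenerating against 16.4, 24.8 and 22.1 CPM in the uninjured pools. Both groups were well apart in each gene of this run. The fourth gene, the longest at 16166 bases, differed least, by 4.99-fold, with 1.73, 1.14 and 1.64 CPM in the regenerating against 10.3, 5.69 and 6.49 CPM in the uninjured pools. Per length, the first 2 genes were the strong ones, at 80.8 and 60.0 TPM in the uninjured retina, beside 1.06, 1.05 and 13.0 TPM for the remaining genes in their order.

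Run B had the second highest summed U of the runs of 5, and its regenerating pools disagreed. The fourth gene, of 5803 bases, measured 11.8, 1.25 and 0.789 CPM in the regenerating against 179, 109 and 156 CPM in the uninjured pools. The second gene measured 1.60, 0.406 and 0.321 CPM in the regenerating against 51.4, 64.6 and 65.2 CPM in the uninjured pools. The fifth gene measured 2.02, 1.01 and 0.417 CPM in the regenerating against 24.3, 27.6 and 37.5 CPM in the uninjured pools. Regenerating pool 1 was the highest of the regenerating pools in all 5 genes of the run, although it stayed far below every uninjured pool. In the first gene the regenerating pools had only 2, 2 and 0 reads, so the order of pools 1 and 2 there carries no information. The log2 ratio of regenerating pool 1 to pools 2 and 3, with 0.1 CPM added, ran from 0.36 to 3.41 in this run. On the means of all pools, the 5 genes were 26.0-fold to 83.8-fold lower. The highest value is that of the first gene and rests on 4 regenerating reads.

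Runs C and D held 5 members each at low levels. In run C, U lay between 2.42 and 9.50 CPM and the means were 10.6-fold to 49.9-fold lower. The highest value is that of the second gene and rests on 7 regenerating reads. The fifth gene measured 0.851, 0.875 and 0.760 CPM in the regenerating against 9.30, 7.29 and 9.85 CPM in the uninjured pools. Pool 1 took no common side in run C. Its log2 ratio to pools 2 and 3 ran from -1.84 to 1.60 in the regenerating group, on few reads, and from -0.93 to 0.12 in the uninjured group. The third gene of run D measured 4.67, 1.15 and 1.13 CPM in the regenerating against 13.5, 16.2 and 13.9 CPM in the uninjured pools. As in run B, regenerating pool 1 was the highest of its group in all 5 genes of run D. The first gene had 18.26 and 18 reads in regenerating pools 1 and 2, and the fifth had 3.75, 0 and 0 reads in the regenerating pools. The order in these genes therefore carries little information. None of the 5 genes had whole estimated counts in all pools, and whether divided reads bear on the shared order was not tested. Run E had 5 falling genes of which 4 were left out, with U from 50.3 to 90.1 CPM, 210-fold to 538-fold lower. Its 1 member measured 0.578, 0.438 and 0.643 CPM in the regenerating against 1.65, 3.13 and 2.10 CPM in the uninjured pools, so the weakest gene of the run is all that remains of it here.

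Run F showed a low uninjured pool 1 throughout. Its second gene, of 6239 bases, measured 15.3, 17.3 and 22.0 CPM in the regenerating against 286, 456 and 455 CPM in the uninjured pools. The first gene measured 0.408, 0.631 and 1.64 CPM in the regenerating against 15.0, 37.9 and 33.4 CPM in the uninjured pools. The fourth gene measured 0.0456, 0.616 and 0.701 CPM in the regenerating against 12.9, 48.5 and 27.3 CPM in the uninjured pools. In all 4 genes pool 1 was the lowest pool of both groups, and the log2 ratio of uninjured pool 1 to pools 2 and 3 ran from -1.55 to -0.67.

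Run G went the other way in uninjured pool 1. Its first gene, of 12309 bases, measured 2.54, 1.48 and 0.718 CPM in the regenerating against 74.0, 53.6 and 49.5 CPM in the uninjured pools. The fourth gene, of 11675 bases, measured 1.20, 1.49 and 0.529 CPM in the regenerating against 77.5, 56.4 and 55.6 CPM in the uninjured pools. The third gene had no read in regenerating pool 1 and 0.654 and 0.443 CPM in pools 2 and 3, against 27.2, 17.3 and 16.1 CPM in the uninjured pools. Uninjured pool 1 was the highest of its group in all 4 genes, by 0.33 to 0.70 on the log2 scale. Their levels per length lay within 10.02 to 18.3 TPM in the uninjured retina and 0.157 to 0.313 TPM in the regenerating retina, and the means were 37.4-fold to 60.3-fold lower. None of the 4 genes had whole estimated counts in all pools, and whether reads divided between transcripts bear on their likeness was not tested. Run H kept 3 of 4 genes, and its first gene measured 5.04, 4.28 and 7.22 CPM in the regenerating against 93.1, 144 and 136 CPM in the uninjured pools.

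The members with the highest U stood in the middle of runs of 3. AMEX60DD045225, the second gene of run J and 4234 bases long, measured 38.6, 56.7 and 64.3 CPM in the regenerating against 700.1, 1087 and 1071 CPM in the uninjured pools. Its groups were far apart, with a log2 fold change of -4.01 (SE 0.33, edgeR adjusted p = 0.000231). AMEX60DD049778, the second gene of run I and 9834 bases long, measured 7.72, 21.5 and 23.1 CPM in the regenerating against 476, 1172 and 1074 CPM in the uninjured pools. Pool 1 was low in both groups, and the log2 fold change was -5.56 (SE 0.63, edgeR adjusted p = 0.000905). Run I reached 3 genes only through its last gene, whose uninjured level came from pool 2 alone. Without that gene AMEX60DD049778 would be in no run. Over the edgeR alternatives the edgeR adjusted p stayed between 5.58e-06 and 0.00245 for the gene of run J. For the gene of run I it stayed between 0.000196 and 0.00651. DESeq2, a different test, gave adjusted p of 1.33e-28 for the gene of run J and 1.08e-22 for that of run I. Both genes were chosen on this contrast, so the fits add no evidence for the fall.

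The neighbours of these genes were far weaker in the uninjured retina. In run J the first gene measured 9.25, 8.41 and 7.54 CPM in the regenerating against 63.1, 80.2 and 72.6 CPM in the uninjured pools. The third gene measured 0.136, 0.310 and 0.351 CPM in the regenerating against 2.72, 4.97 and 5.08 CPM in the uninjured pools, with uninjured pool 1 the lowest as in the genes beside it. Per length, the 3 genes of run J stood at 75.0, 501.9 and 2.10 TPM in the uninjured retina and at 8.02, 27.6 and 0.123 TPM in the regenerating retina. In run I the first gene was only 4.52-fold lower, with 21.4, 29.6 and 30.2 CPM in the regenerating against 99.0, 135 and 133 CPM in the uninjured pools. It thus stood above AMEX60DD049778 in each regenerating pool and below it in each uninjured pool.

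Run K joined 3 genes in which pool 1 was the lowest uninjured pool, while the order of the regenerating pools differed between them. The third gene, of 3090 bases, measured 24.5, 23.6 and 23.2 CPM in the regenerating against 251, 391 and 396 CPM in the uninjured pools. The first gene, of 778 bases, measured 1.97, 1.69 and 3.13 CPM in the regenerating against 45.2, 68.3 and 62.4 CPM in the uninjured pools. The second gene, of 496 bases, measured 1.26, 1.88 and 2.16 CPM in the regenerating against 27.9, 49.5 and 43.7 CPM in the uninjured pools. Uninjured pool 1 lay below pools 2 and 3 by 0.53 to 0.74 on the log2 scale in all 3 genes, whose means were 14.6-fold to 25.9-fold lower. Despite their unequal lengths they stood at 164, 282 and 303 TPM in the uninjured retina.

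Run L spread its regenerating pools in the abundant first gene, which measured 15.7, 28.3 and 49.4 CPM in the regenerating against 269.7, 349 and 347 CPM in the uninjured pools. The second gene had no read in regenerating pool 1 and 0.0750 and 0.448 CPM in pools 2 and 3, against 1.01, 3.06 and 2.42 CPM in the uninjured pools. Pool 1 was the lowest of both groups in these 2 genes. The third gene did not share that order, with 3.78, 3.53 and 2.86 CPM in the regenerating against 60.4, 60.8 and 59.4 CPM in the uninjured pools.

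**Figure D4:**
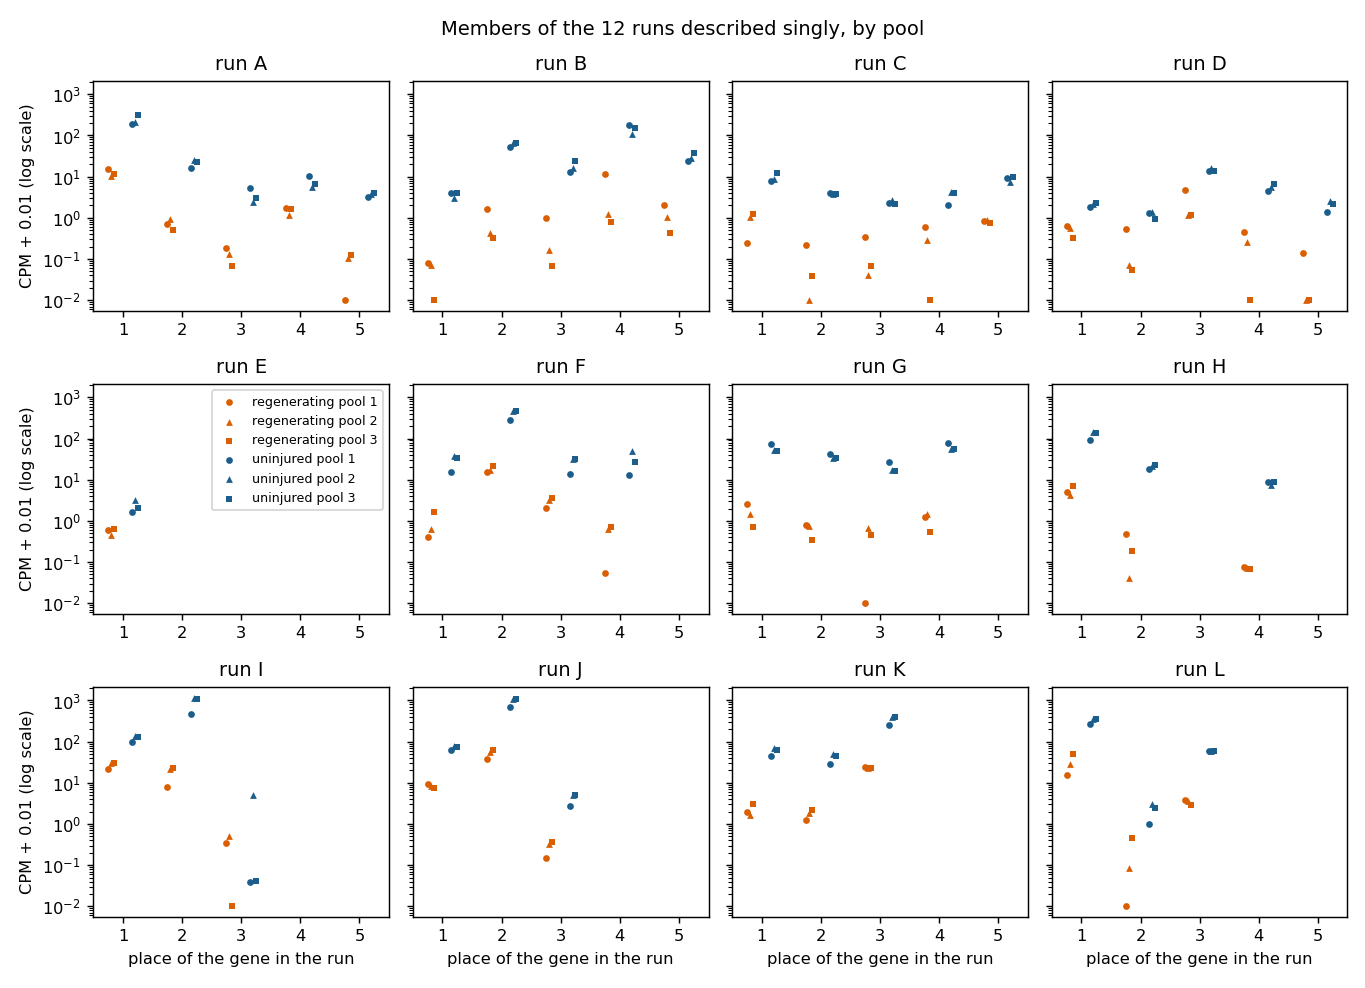
CPM (vertical axis, log scale, 0.01 added) of each member of runs A to L by its place in the run (horizontal axis), with regenerating pools 1 to 3 in orange to the left of uninjured pools 1 to 3 in blue. The groups are apart in every member shown but the last gene of run I, and pool 1 (circles) is low throughout run F and high among the regenerating pools of runs B and D.

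Some runs not given letters had near-equal members, and they were picked after their values were seen. A run of 3 short genes of 272, 221 and 264 bases had 3 nearly equal levels. Its first gene measured 0.102, 0.469 and 1.29 CPM in the regenerating against 6.67, 16.0 and 10.4 CPM in the uninjured pools. The second gene measured 0.0680, 0.250 and 0.789 CPM in the regenerating against 6.81, 14.4 and 9.50 CPM in the uninjured pools, and the third 0.102, 0.406 and 0.555 CPM in the regenerating against 6.61, 14.9 and 13.1 CPM in the uninjured pools. All deposited estimated counts of these 3 genes were whole numbers. In a run of 3 genes of 3264 to 4559 bases, the means differed by 5.41-fold, 5.53-fold and 6.66-fold, and uninjured pool 3 was the highest pool in each gene. In a run of 3 genes of 5591 to 8909 bases the highest pool was uninjured pool 1, by 1.29 to 1.42 on the log2 scale over pools 2 and 3. In a run of 3 genes of 1147 to 4686 bases uninjured pool 1 was the lowest of its group, with log2 ratios of -1.94 to -1.37.

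Within runs the members varied in the size of the difference, in length and in level. Over the 81 runs with at least 3 members, the largest fold difference was 2.78 times the smallest in the median run, and in 29 runs it was under 2 times. For length the median ratio was 4.00 with 11 runs under 2 times, and for the uninjured level in TPM it was 4.28 with 19 runs under 2 times. On the log2 scale the SD of the fold difference was 1.04 within runs and 1.49 over the 281 members that share a run with another member. The falling genes outside runs had an SD of 1.80, a group that still holds the genes at least 128-fold lower. In 22 of the 81 runs at least 1 member stood below 10% of the highest member's TPM, 31 such members in all, and in 35 runs the member with the highest TPM was also the longest.

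The position of pool 1 within its own group, which the choice of members used only through the means, was similar in many run neighbours. Uninjured pool 1 lay below the mean of pools 2 and 3 in 212 of 287 members, with a median log2 ratio of -0.35 (10th to 90th percentile -1.13 to 0.38). Falling genes outside runs behaved alike, with a median of -0.32 and 75.4% below 0 against 73.9% of members, and the low pool 1 was thus found in both. Across 187 adjacent pairs of members the ratios had a Pearson r of 0.49 and a Spearman rho of 0.49. Across 89 pairs of members of different runs 11 to 100 numbers apart r was -0.10. Adjacent falling genes outside runs had an r of 0.58 over 316 pairs. All these pairs share the same 3 libraries, and the values are descriptions across genes.

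All members of the run lay on the same side of 0 in 51 of the 81 runs with at least 3 members, 43 with uninjured pool 1 below the other pools and 8 with it above. Since 73.9% of all members lay below 0, part of these runs would do so without any likeness between neighbours. The share for unrelated genes was not computed. The SD of the ratio was 0.58 within runs and 0.62 between the means of 89 runs with at least 2 members. With pool 2 set against pool 3 of the uninjured group the adjacent pairs had an r of 0.12 and a rho of 0.17, and over the 91 pairs with U of at least 5 CPM an r of 0.39 and a rho of 0.24.

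For regenerating pool 1 against pools 2 and 3, the members had a median log2 ratio of -0.19 and a 10th to 90th percentile of -1.29 to 0.92. The adjacent pairs had an r of 0.48 and a rho of 0.41. Over the 39 pairs with R of at least 1 CPM in both genes r was 0.32 and rho 0.15, both lower than over all adjacent pairs. Most members have few reads in this group, and no pattern is read from these values, which were not tested. Adjacent falling genes outside runs had an r of 0.28 over 316 pairs, and 0.41 over 87 pairs with R of at least 1 CPM. All members of a run lay on 1 side in 32 of 81 runs, 9 of them above 0, runs B and D included. Of all members 56.4% lay below 0, and here too the share for unrelated genes was not computed. The pool 2 to pool 3 ratio of the regenerating group gave an r of 0.19 and a rho of 0.18. Over the 39 pairs with R of at least 1 CPM these were 0.08 and 0.07.

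**Figure D5:**
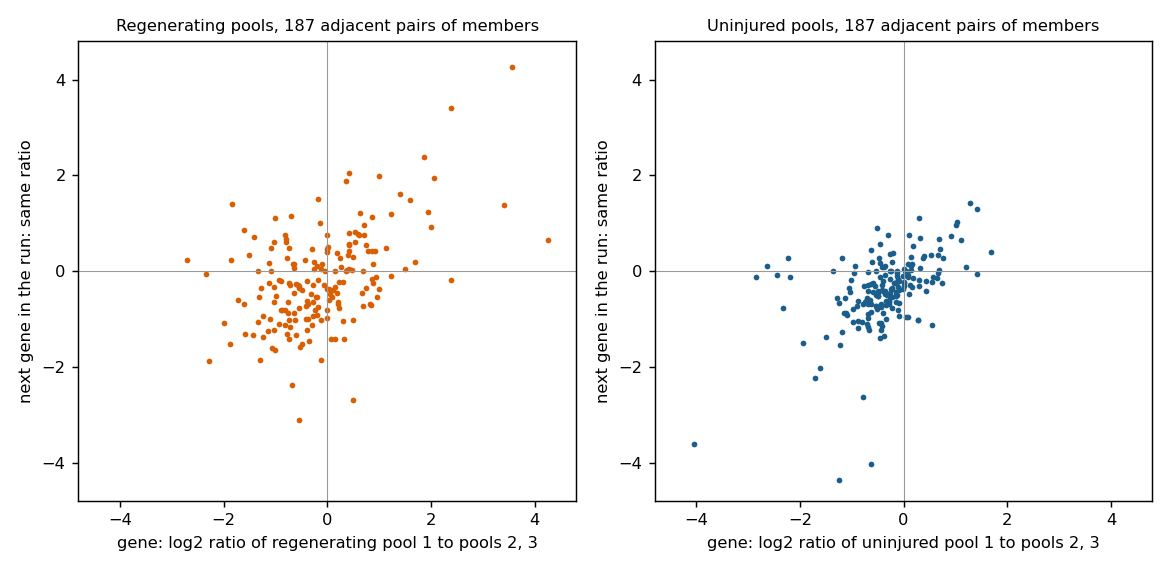
Log2 ratio of pool 1 to the mean of pools 2 and 3 of the same group, with 0.1 CPM added, for a member (horizontal axis) and for the next gene of its run (vertical axis), in the regenerating group (left) and the uninjured group (right), for 187 adjacent pairs. Points in both panels spread along the rising diagonal, with r of 0.48 on the left and 0.49 on the right. On the left r is 0.32 over the 39 pairs with R of at least 1 CPM in both genes.

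Beyond the run ends, falling genes were counted by distance, with the genes of other runs, all of them falling, left out. This lowers the shares around runs, whereas around single falling genes no gene was left out. The 198 genes directly next to a run are not falling by definition. Of them, 127 had U under 1 CPM and 71 had more. Of the 127, 38 were also at least 4-fold lower, counted without a minimum of reads, and missed membership on their level alone. The share of such genes among all numbered genes with U under 1 CPM was not computed. Of the 198, 39 were listed at 0 in all pools. Of the 71 expressed neighbours, 44 (62.0%) had U above R, against 49.9% of the 17206 expressed numbered genes that were not falling, and 12 (16.9%) were at least 2-fold lower, against 14.8%. At 2 numbers from a run end 21 of 85 expressed genes were falling (24.7%), at 3 numbers 11 of 70 (15.7%), and from 11 to 20 numbers 115 of 737 (15.6%), beside the 16.0% of all expressed numbered genes. Around single falling genes, 413 of 1692 expressed genes were falling at 2 numbers (24.4%) and 407 of 1724 at 3 numbers (23.6%). From 2 to 5 numbers the share was 18.4% around runs, without the genes of other runs, and 22.3% around single falling genes, with all genes. These shares are not counted alike, so nothing is read from their difference, which was not tested.

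Runs were found all along the numbering. Cut into 10 equal parts, the number range held 11, 13, 5, 8, 6, 7, 14, 9, 10 and 17 runs, and 257 to 390 falling genes in a part. Neighbouring runs were a median of 379 numbers apart, and 2 pairs of runs were parted by 1 number. In 1 of these pairs a run of 4 and a run of 3 were split by a gene with 0.0218 CPM in the regenerating and 0.387 CPM in the uninjured mean, which missed the minimum level. In the other, 2 runs of 3 were split by a gene with 20.7 CPM in the regenerating and 23.7 CPM in the uninjured mean. This gene was expressed and near-equal between the groups amid 6 falling neighbours.

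A larger share of members than of other falling genes was short, which is given as a description without a test. Their lengths ran from 218 to 28386 bases with a median of 2830, beside 3615 for falling genes outside runs and 3407 for all numbered genes with U of at least 1 CPM. Under 600 bases were 11.1% of members, 4.69% of falling genes outside runs and 3.28% of all. Over 4000 bases were 35.9%, 45.8% and 41.4% in the same order. A single length in all libraries, as for a gene with 1 transcript in use, was listed for 61.0% of members, 44.6% of falling genes outside runs and 35.6% of all. Fractional counts, which arise where reads are divided between similar or overlapping transcripts, occurred in an uninjured pool for 49.5% of members, 39.4% of falling genes outside runs and 43.1% of all. The strand setting is not given in the sources used here, so neighbours that overlap cannot be told apart by these counts, and whether pieces of the same gene make up part of the runs was not tested.

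The thresholds cut through continuous values. The members nearest the fold threshold were 4.03-fold, 4.04-fold and 4.12-fold lower, and the nearest expressed run neighbours outside it were 3.79-fold, 3.60-fold and 3.16-fold lower. The members nearest the level threshold had U of 1.03, 1.04 and 1.05 CPM, and the nearest run neighbours left out for their level alone had U of 0.865, 0.863 and 0.775 CPM. Most runs were untouched by the removal of the genes at least 128-fold lower: 77 kept all their genes, 23 lost at least 1 and 5 lost all. The share removed was 12.5% among run genes and 6.76% among falling genes outside runs, 199 of 2942.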

How the data were processed

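Per the submitters' processing notes, Trimmomatic 0.38 and Salmon 0.13.1 were used; for build, annotation and strand the entry is: not given in the sources used here. Per the file headers, the deposited sample files give estimated counts of reads per gene, TPM values scaled by the authors for length, and gene lengths. The deposited series table held signal values equal to TPM times the library total in M reads (tolerance 1%, 100% of genes above 1 TPM), and served as an alternative. CPM on library sums were computed in Python 3.11.15. The estimated counts, rounded, were tested with edgeR 4.0.16 in R 4.3.3 (filterByExpr, TMM, robust quasi-likelihood test, no block, Benjamini-Hochberg over all genes); it was checked on simulated data. DESeq2 1.42.0 was an alternative. A gene with no read was bounded at 3 reads per library. For the median differences in held-out pairs, every regenerating value under the mean floor was raised to it. Floors cover counting error only. Library totals in place of TMM moved the median log2 fold change of all genes by -0.16.

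Per the labels, pools that share a number share their animals; their deviations correlated at -0.01, 0.07 and 0.07. P-values measure the spread between pools. Members and lists were chosen with earlier results of these data known. Genes to name followed a written rule: all members of 12 runs by place, identifiers for the highest 2 by U, with summed U read as over members only, a reading settled after a first look at the data; without symbols, no marker list could be used. Runs at wider steps replace a shuffled order.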

Additional observations from a re-analysis of the deposited data

How the results depend on the processing

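The 100 runs and 287 members came to 91 and 258 on TMM-scaled CPM (254 members shared), to 80 and 216 (all 216 shared) in a replicate block, that is with the 4-fold difference demanded in each pair of pools from the same animals, and to 95 to 108 and 260 to 309 without 1 library (251 to 277 shared). They moved further with the thresholds and the unit: to 47 and 116 at U of at least 5 CPM, 61 and 159 at 8-fold, 23 and 89 for runs of at least 4, 195 and 609 on TPM and 194 and 606 in the series table (258 of the 287 shared in both). The first 3 shrink by construction, and the cause on TPM was not tested. The series table holds TPM times the library total, so once scaled it is the same measure as TPM and no separate check. Members called lower by edgeR numbered 274 with the pool number as a block in the fit, against 280. They numbered 263 to 282 without 1 library and 253 to 282 in the other edgeR settings. DESeq2 called 285 members lower. All genes called lower were 5066 at an adjusted p under 0.01 and 5804 to 9131 without 1 library, against 8004. The block in the edgeR fit changed no call of the 2 genes given by identifier. With the 4-fold difference demanded in each pair, the last gene of run I failed in pair 1, and AMEX60DD049778 was then in no run. The share of run genes falling in held-out pairs averaged 92.5%, 91.8% on TMM-scaled CPM and 91.4% without a minimum level, the last chosen after seeing the data. With U of at least 5 CPM the SD of the uninjured pool 1 ratio was 0.526 within and 0.573 between runs, against 0.582 and 0.622. Depth limits levels under 0.0801 to 0.102 CPM.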
